A study of Mus musculus with 12 samples.

Results

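Fc receptors are the proteins through which cells bind the constant part of antibodies. The 7 genes described here were chosen by symbol: the receptors for immunoglobulin G (Fc gamma receptors) Fcgr1, Fcgr2b, Fcgr3 and Fcgr4, the adaptor gene Fcer1g, the transport receptor gene Fcgrt, and Fcrls, a member of the Fc receptor-like family. They are 7 of the 22180 genes that carry a single symbol on the array, each is represented by 1 row of the deposited table, and all 7 passed the filter on low values (log2 above the table median, 4.93, on at least 3 arrays) that left 13286 genes for testing. Differences are given on the log2 scale with limma's moderated standard error (SE), and a gene passed, or was called, where its p adjusted over all tested genes was under 0.05.

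RNA came from mouse colorectal cancer (CRC) tissue that had grown in a healthy or a fatty liver after injection there, with mice receiving vehicle or anti-VEGF, which targets vascular endothelial growth factor. The 4 groups were tumours of healthy liver under vehicle, of healthy liver under anti-VEGF, of fatty liver under vehicle and of fatty liver under anti-VEGF, with 3 arrays and, per the series' design text, 3 mice in each. Neither the agent, its dose or its class, nor the mouse strain and sex, the tumour cells or the way the liver was made fatty is stated in the labels. The control was vehicle, and no group given a control antibody is named.

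In mice, FcγRI (Fcgr1), FcγRIII (Fcgr3) and FcγRIV (Fcgr4) are activating receptors. They signal through the Fc receptor gamma chain, the product of Fcer1g, which carries an immunoreceptor tyrosine-based activation motif (ITAM) and is also needed to bring these receptors to the cell surface. FcγRIIB (Fcgr2b) is the inhibitory receptor of macrophages, B cells and some endothelia, and recruits the phosphatase SHIP1. FcRn (Fcgrt) binds immunoglobulin G and albumin in endosomes and returns them to the circulation, and Fcrls is a secreted protein best known as a product of microglia.

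The promoters of the receptor genes are shown as a description of sequence, and no link with the differences between livers was tested. The 120 bases before the RefSeq start site are printed 5′ to 3′ on the strand of the gene, from the assembly GRCm38.p6. They are given for the 3 activating receptors and for the inhibitory receptor. The windows are chr3:96293970-96294089 (minus strand), chr1:171059404-171059523 (minus strand, the first of the listed starts), chr1:171018806-171018925 (plus strand) and chr1:170976072-170976191 (minus strand). Capitals mark matches on either strand to GAGGAA, the core bound by the myeloid factor PU.1 (reverse complement TTCCTC), and to TTCNNNGAA, the form of an interferon gamma activation site.
Fcgr1 promoter: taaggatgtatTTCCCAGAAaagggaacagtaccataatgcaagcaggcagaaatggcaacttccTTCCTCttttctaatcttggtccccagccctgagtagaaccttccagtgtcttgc
Fcgr3 promoter: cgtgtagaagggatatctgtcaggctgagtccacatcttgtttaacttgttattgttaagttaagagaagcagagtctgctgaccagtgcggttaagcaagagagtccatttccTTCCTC
Fcgr4 promoter: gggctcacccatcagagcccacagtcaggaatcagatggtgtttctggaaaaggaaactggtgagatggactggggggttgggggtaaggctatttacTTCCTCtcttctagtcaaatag
Fcgr2b promoter: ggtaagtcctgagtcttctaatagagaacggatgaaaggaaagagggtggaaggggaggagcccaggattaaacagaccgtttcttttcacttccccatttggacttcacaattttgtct

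In each activating receptor gene the PU.1 core was found once in this window, on the reverse strand: 55 to 50 bases before the start in Fcgr1, 22 to 17 in Fcgr4 and 6 to 1 in Fcgr3. Fcgr1 also held TTCCCAGAA, 109 to 101 bases before the start, and was the only member with TTCNNNGAA. Over 250 bases, 4 of the 7 members held GAGGAA, the fourth being Fcrls at 144 to 139 bases before the start, and 1 of 7 held TTCNNNGAA. Of all 32851 promoters of the table, 23.3% held GAGGAA and 7.02% held TTCNNNGAA in the same 250 bases, and 11.6% and 3.15% did so in 120 bases. These are matches of letters only, and the lack of one in Fcgr2b, Fcer1g or Fcgrt says only that these letters are not in the window.

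Within groups, some arrays resembled each other closely. Over the tested genes, the log2 differences between paired arrays had an SD of 0.148 to 0.163 for 5 pairs, namely vehicle arrays 1 and 3 of each liver and all pairs among the healthy liver anti-VEGF arrays, against 0.391 to 0.636 for the other 7 pairs. The values cannot show whether such arrays came from separate mice. Each was counted as labelled, so n = 3, the SDs and the p-values may rest on fewer independent samples than stated. On the first principal component, vehicle array 2 of healthy liver (-4.96) and anti-VEGF array 3 of fatty liver (9.26) lay between the livers, whose other arrays ran from -53.8 to -49.2 and from 43.0 to 68.1. Xist, the RNA of the inactive X chromosome, was at 8.10 to 10.6 on vehicle arrays 1 and 3 of both livers and at most 4.32 on the other 8 arrays. None of the anti-VEGF arrays was high in Xist, so for these vehicle arrays that difference and treatment cannot be told apart.

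Fcgr1, the high-affinity receptor for IgG2a, was more than 4-fold higher in tumours of fatty liver. Its log2 expression was 9.43, 10.65 and 9.48 on the vehicle arrays of healthy liver and 12.07, 12.22 and 11.97 on those of fatty liver. Under anti-VEGF the values were 9.03, 8.93 and 8.89 in healthy and 12.14, 11.76 and 11.52 in fatty liver. Every fatty liver array lay above every healthy liver array, and array 2 stood above the other vehicle arrays of healthy liver. The log2 difference between livers was 2.23 (SE 0.28, limma adjusted p = 0.000308, 4.70-fold) under vehicle and 2.86 (SE 0.28, limma adjusted p = 5.63e-05, 7.25-fold) under anti-VEGF.

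Fcgr3, the low-affinity activating receptor of macrophages, neutrophils and natural killer cells, had a similar difference. In healthy liver it was at 7.60, 8.79 and 7.84 under vehicle and at 7.96, 7.64 and 7.83 under anti-VEGF. In fatty liver it was at 10.16, 10.37 and 10.16 under vehicle and at 9.98, 10.22 and 9.91 under anti-VEGF. The livers did not overlap, and within each liver the treatments did. Fatty liver exceeded healthy liver by 2.15 (SE 0.25, limma adjusted p = 0.000218, 4.45-fold) under vehicle and by 2.23 (SE 0.25, limma adjusted p = 0.000115, 4.68-fold) under anti-VEGF.

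Fcgr4, the receptor for IgG2a and IgG2b on monocytes, macrophages and neutrophils, had the largest difference between livers of the 7 members, although under vehicle it exceeded Fcgr1 by less than the SE. Tumours of healthy liver had 8.17, 9.48 and 8.24 with vehicle and 7.76, 7.91 and 7.68 with anti-VEGF. Tumours of fatty liver had 10.77, 11.02 and 10.83 with vehicle and 10.90, 10.83 and 11.13 with anti-VEGF. The lowest fatty liver array stood 1.29 above the highest healthy liver array, which again was vehicle array 2. The log2 difference was 2.24 (SE 0.28, limma adjusted p = 0.000315, 4.73-fold) under vehicle and 3.17 (SE 0.28, limma adjusted p = 3.64e-05, 9.01-fold) under anti-VEGF, where 0.723% of the tested genes had a larger one.

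The adaptor gene Fcer1g was also higher in fatty liver. The healthy liver arrays read 11.24, 12.12 and 11.31 with vehicle and 11.14, 11.16 and 11.20 with anti-VEGF. The fatty liver arrays read 12.56, 12.55 and 12.54 with vehicle and 12.50, 12.57 and 12.48 with anti-VEGF. The 6 fatty liver arrays spanned less than 0.1 on the log2 scale and all lay above healthy liver. The difference was 0.99 (SE 0.19, limma adjusted p = 0.0023, 1.99-fold) under vehicle and 1.35 (SE 0.19, limma adjusted p = 0.000387, 2.55-fold) under anti-VEGF.

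The inhibitory receptor gene Fcgr2b was higher in fatty liver as well. It was at 10.19, 11.19 and 10.13 on the healthy liver vehicle arrays and at 9.97, 9.97 and 10.01 on the healthy liver anti-VEGF arrays. In fatty liver it was at 11.85, 11.93 and 11.83 under vehicle and at 11.88, 11.98 and 11.66 under anti-VEGF. The livers did not overlap. The log2 difference was 1.37 (SE 0.23, limma adjusted p = 0.00129, 2.58-fold) under vehicle and 1.85 (SE 0.23, limma adjusted p = 0.000197, 3.61-fold) under anti-VEGF. Fcgr2b and Fcgr3 share closely similar sequence in the part that codes for the extracellular domains, and whether probes of one bind transcripts of the other was not checked.

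**Figure D1:**
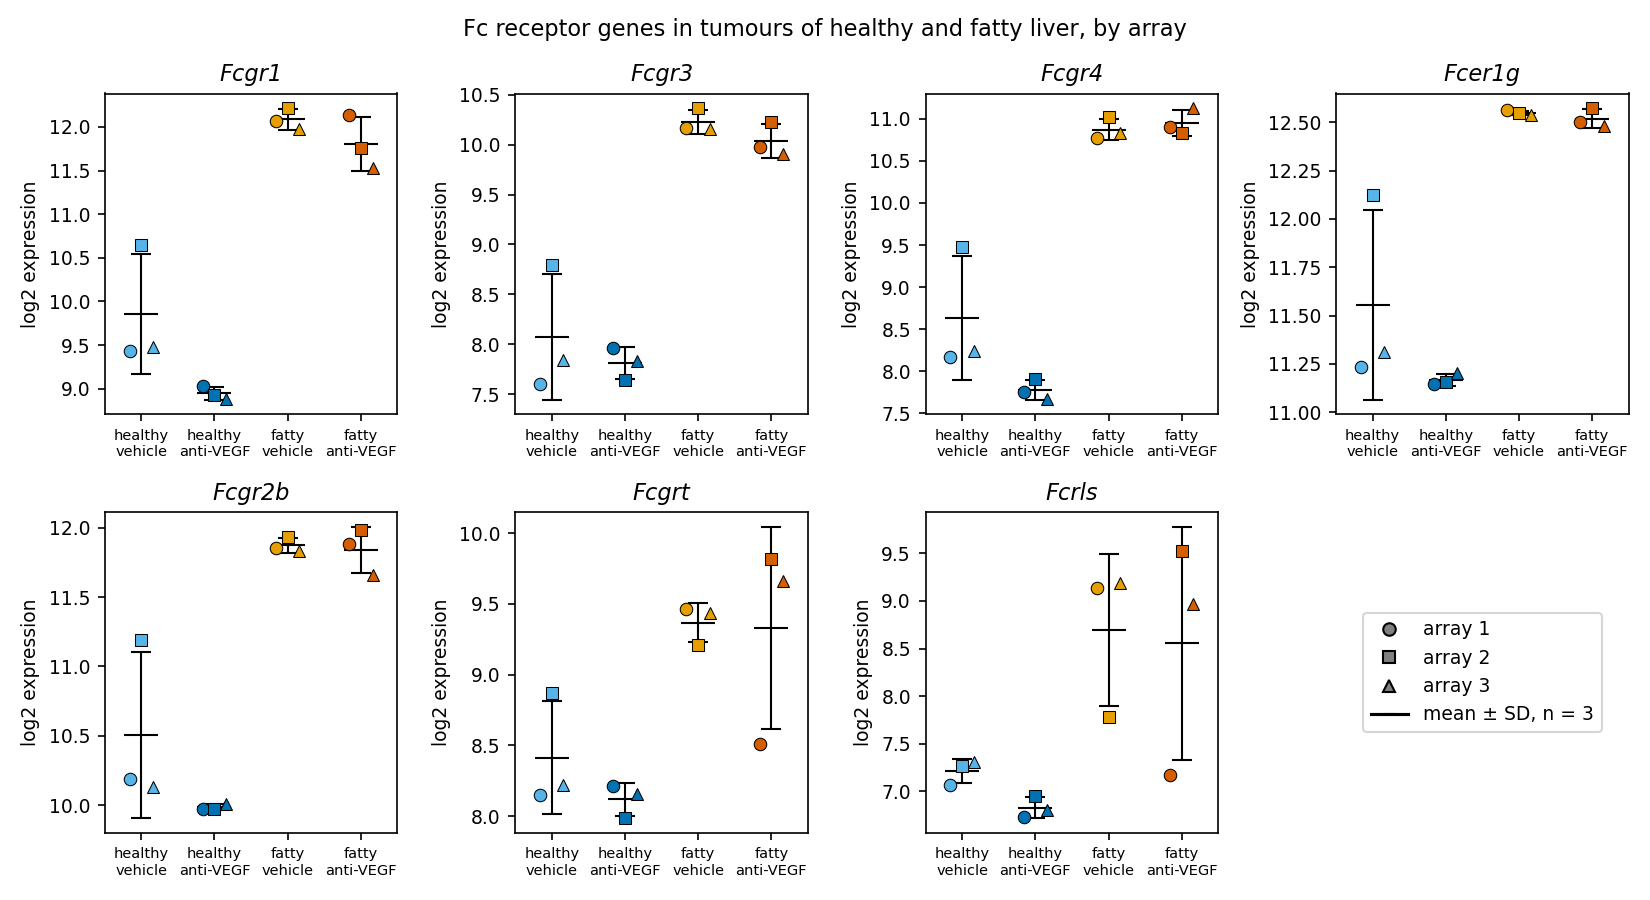
Log2 expression (vertical axis) of the 7 Fc genes on each of the 12 arrays by group (horizontal axis), with circles, squares and triangles for arrays 1, 2 and 3 and bars for the mean ± SD (n = 3). For Fcgr1, Fcgr3, Fcgr4, Fcer1g and Fcgr2b all 6 fatty liver arrays lie above all 6 healthy liver arrays, while for Fcgrt and Fcrls single fatty liver arrays fall to the healthy liver level.

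Fcgrt, which recycles IgG, was higher in fatty liver on average but not on every array. In healthy liver it was at 8.15, 8.87 and 8.22 with vehicle and at 8.21, 7.98 and 8.16 with anti-VEGF. In fatty liver it was at 9.46, 9.21 and 9.43 with vehicle and at 8.51, 9.82 and 9.66 with anti-VEGF. Anti-VEGF array 1 of fatty liver, at 8.51, lay below vehicle array 2 of healthy liver, at 8.87, although within each treatment the livers did not overlap. The difference was 0.95 (SE 0.31, limma adjusted p = 0.0254, 1.94-fold) under vehicle and 1.21 (SE 0.31, limma adjusted p = 0.0101, 2.32-fold) under anti-VEGF. The call under vehicle was lost when vehicle array 1 or 3 of either liver was left out, with limma adjusted p-values of 0.0644 to 0.09.

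Fcrls was the most variable member within fatty liver. It was at 7.07, 7.27 and 7.31 under vehicle and at 6.73, 6.95 and 6.81 under anti-VEGF in healthy liver. In fatty liver it was at 9.13, 7.78 and 9.18 under vehicle and at 7.18, 9.52 and 8.97 under anti-VEGF. Vehicle array 2 and anti-VEGF array 1 of fatty liver were near the healthy liver level and the other 4 well above it. The difference was 1.48 (SE 0.53, limma adjusted p = 0.0393, 2.79-fold) under vehicle and 1.72 (SE 0.53, limma adjusted p = 0.0233, 3.30-fold) under anti-VEGF. Leaving out 1 array ended the call in 8 of 12 fits under vehicle, all but those without a fatty liver anti-VEGF array or without fatty liver vehicle array 2. Under anti-VEGF it did so in 5 of 12, those without any healthy liver anti-VEGF array or without fatty liver anti-VEGF array 2 or 3. The limma adjusted p then reached 0.12 and 0.091. With no filter on low values the call under vehicle was also lost (limma adjusted p = 0.053).

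The same fatty liver arrays stood out in the endothelial marker list (Pecam1, Cdh5, Kdr and others), whose mean was 7.77 on vehicle array 2 and 7.44 on anti-VEGF array 1, against 6.13 to 6.28 on the other 4. The macrophage list mean was 11.4 to 11.5 on the fatty liver vehicle arrays and 11.2 to 11.6 under anti-VEGF, with anti-VEGF array 1 at 11.3. Those arrays were also the highest of the 6 in the fibroblast list, at 8.52 and 8.92, and in the neutrophil list, at 7.69 and 9.10. The part of these cell types in the Fcrls and Fcgrt values was not tested. Of the 5 microglial markers with a row, Sall1 was below the limit of 4.93 on every array. Under vehicle P2ry12 differed by 2.17 (SE 0.21, limma adjusted p = 0.000121) and Siglech by 1.93 (SE 0.33, limma adjusted p = 0.0015). Olfml3 differed by -1.11 (SE 0.21, limma adjusted p = 0.00236) and Tmem119 by 0.21 (SE 0.16, limma adjusted p = 0.305). Siglech, also on the list of dendritic cell markers, had healthy liver means of 4.80 and 4.68, below the limit. It may have passed the filter only through fatty liver.

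**Figure D2:**
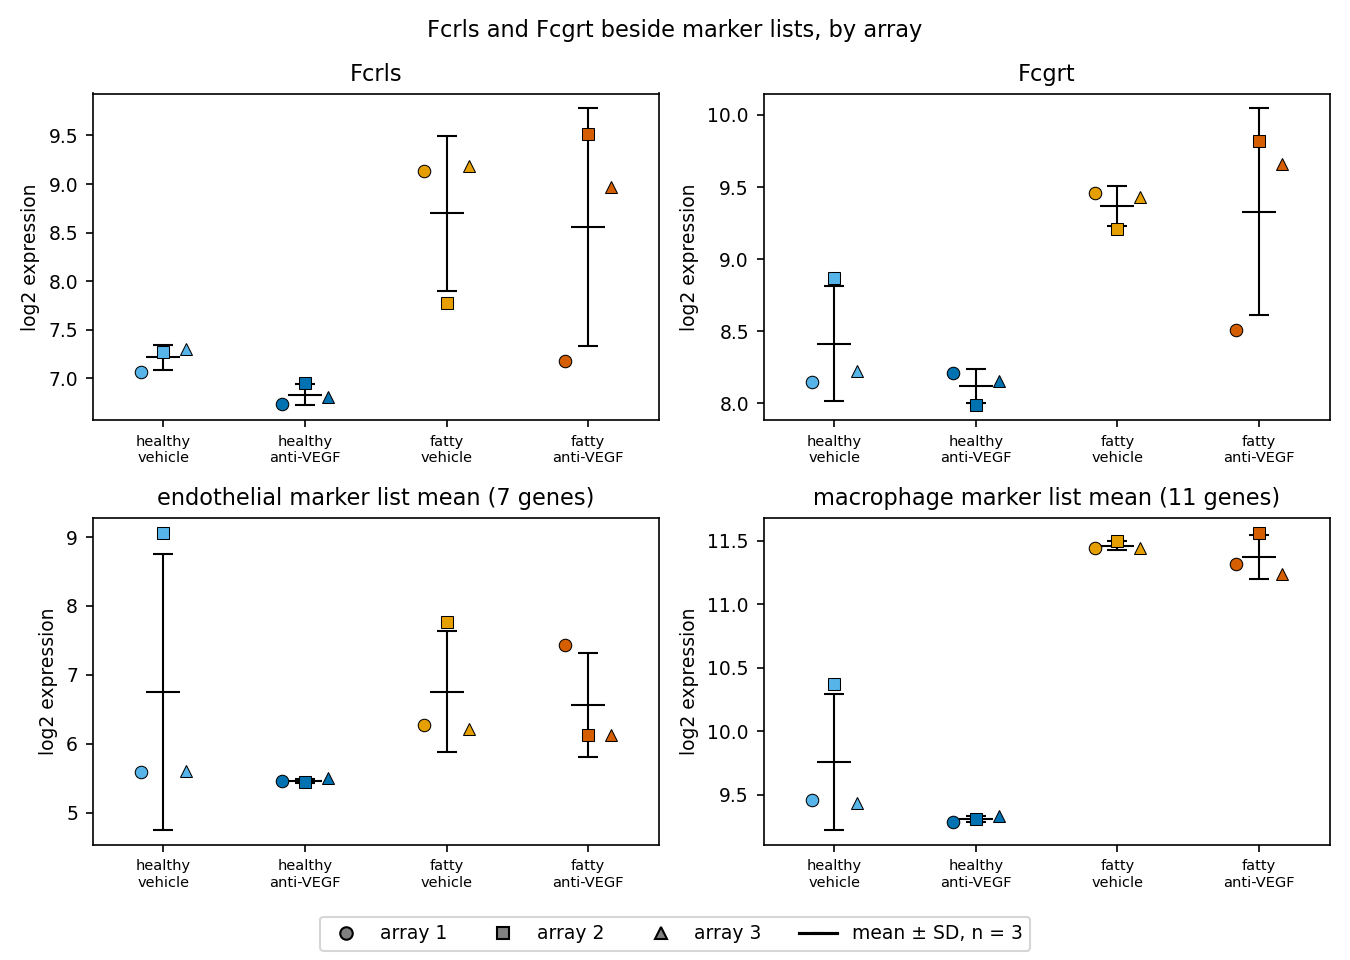
Fcrls and Fcgrt (upper panels) and the means of the endothelial and macrophage marker lists (lower panels) in log2 expression (vertical axes) on the 12 arrays by group (horizontal axes), with bars for the mean ± SD (n = 3). Of the 6 fatty liver arrays, number 2 under vehicle and number 1 under anti-VEGF have the lowest Fcrls values, 7.78 and 7.18, and the highest endothelial means, 7.77 and 7.44.

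Counted together, 7 of 7 members were higher in fatty liver under vehicle, where 19.2% of all tested genes were, and 7 of 7 under anti-VEGF, where 18.2% were (limma, adjusted p under 0.05). The median log2 difference of the members was 1.48 under vehicle and 1.85 under anti-VEGF, beside medians over all tested genes of -0.12 and -0.13. In the order of group means both fatty liver groups stood above both healthy liver groups for each of the 7, and the fatty liver groups overlapped each other. For all 7 the groups did not overlap in either comparison between livers, as was the case for 60.8% and 58.5% of tested genes. The comparisons under vehicle and under anti-VEGF use different arrays. In bulk tissue, fewer cells of a type and less RNA per cell cannot be told apart.

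The size of the differences depended on which vehicle arrays were compared. Between the vehicle arrays low in Xist, 1 per liver, the log2 difference was 1.57 for Fcgr1, 1.58 for Fcgr3 and 1.53 for Fcgr4. It was 0.43 for Fcer1g, 0.74 for Fcgr2b, 0.34 for Fcgrt and 0.50 for Fcrls. Between the Xist-high arrays, 2 per liver, it was 2.56, 2.44 and 2.60 for the activating receptors, 1.28 for Fcer1g, 1.68 for Fcgr2b, 1.26 for Fcgrt and 1.97 for Fcrls. All 7 were thus higher in fatty liver within both kinds of array, with the smaller difference in the pair that holds vehicle array 2 of healthy liver. Without the Xist-high vehicle arrays, and likewise with near-identical arrays averaged, Fcgr1, Fcgr3 and Fcgr4 were the only members to pass under vehicle, where 1057 and 721 of 13286 genes did. With near-identical arrays averaged these 3 were also the ones that passed under anti-VEGF, where 510 of 13286 genes did.

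**Figure D3:**
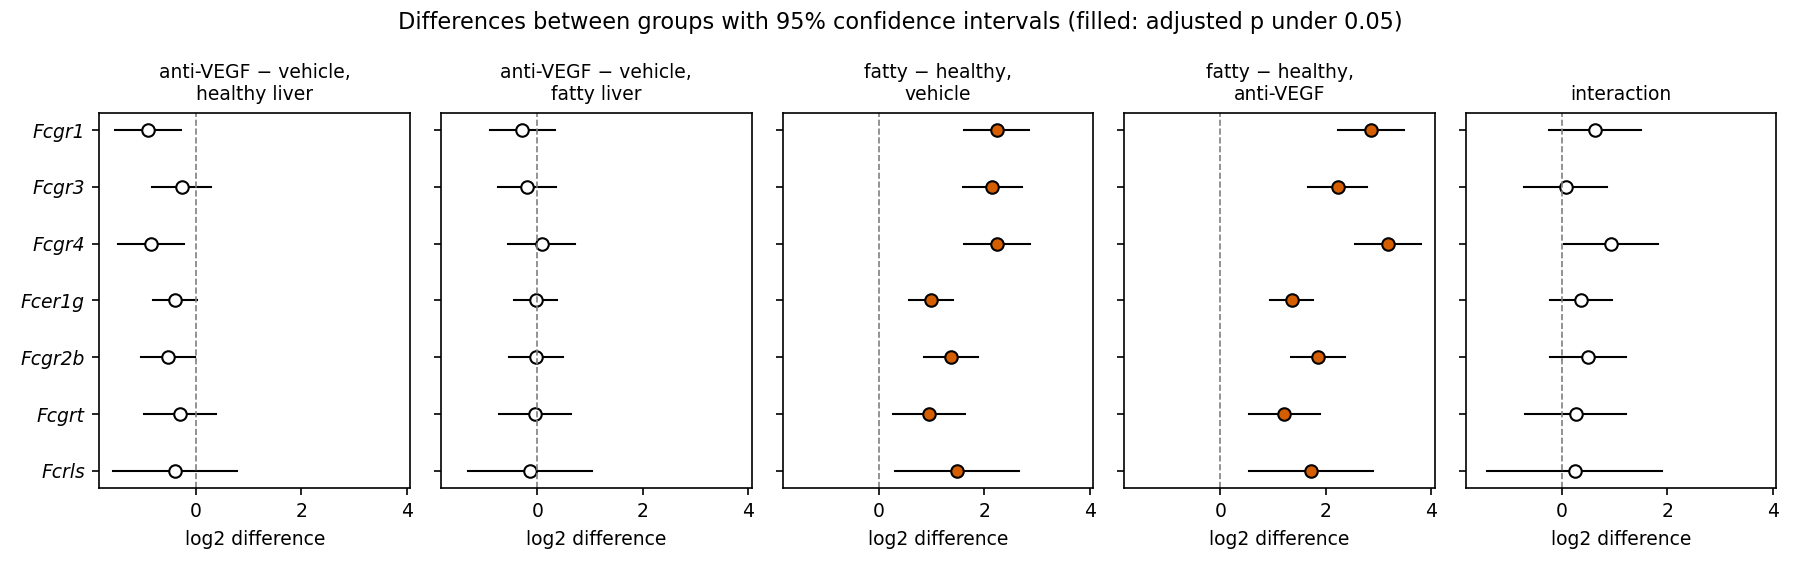
Log2 differences (horizontal axes) of the 7 genes (rows) in the 5 comparisons, with 95% confidence intervals from limma as bars and filled points for an adjusted p under 0.05. All points are filled and above 0 in both comparisons of fatty with healthy liver, and none is filled for treatment or for the interaction.

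Because the activating receptors had larger differences than Fcgr2b, each was also set against Fcgr2b on the same array. Only the change of this difference between groups can be read, since the levels of separate probes are not comparable. The mean of Fcgr1, Fcgr3 and Fcgr4 minus Fcgr2b ran from -1.79 to -1.55 in healthy liver under vehicle and from -1.88 to -1.72 under anti-VEGF. In fatty liver it ran from -0.85 to -0.73 under vehicle and from -1.05 to -0.80 under anti-VEGF. It was thus higher on every fatty liver array than on any healthy liver array, by 0.84 on average under vehicle and 0.90 under anti-VEGF.

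Taken singly, Fcgr1 relative to Fcgr2b was higher in fatty liver by 0.86 under vehicle and 1.00 under anti-VEGF, and Fcgr4 by 0.87 and 1.32. For Fcgr3 the shift was 0.79 and 0.37. Fcer1g relative to Fcgr2b shifted the other way, by -0.37 and -0.50, with Fcer1g above 99.9% of the values of all genes in both fatty liver groups. Fcgr2b, the reference for each shift, was itself above about 99.5% of these values in both fatty liver groups. Whether signals so high are compressed on the array was not tested for any of these genes. These shifts were chosen after the values were seen and carry no test.

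**Figure D4:**
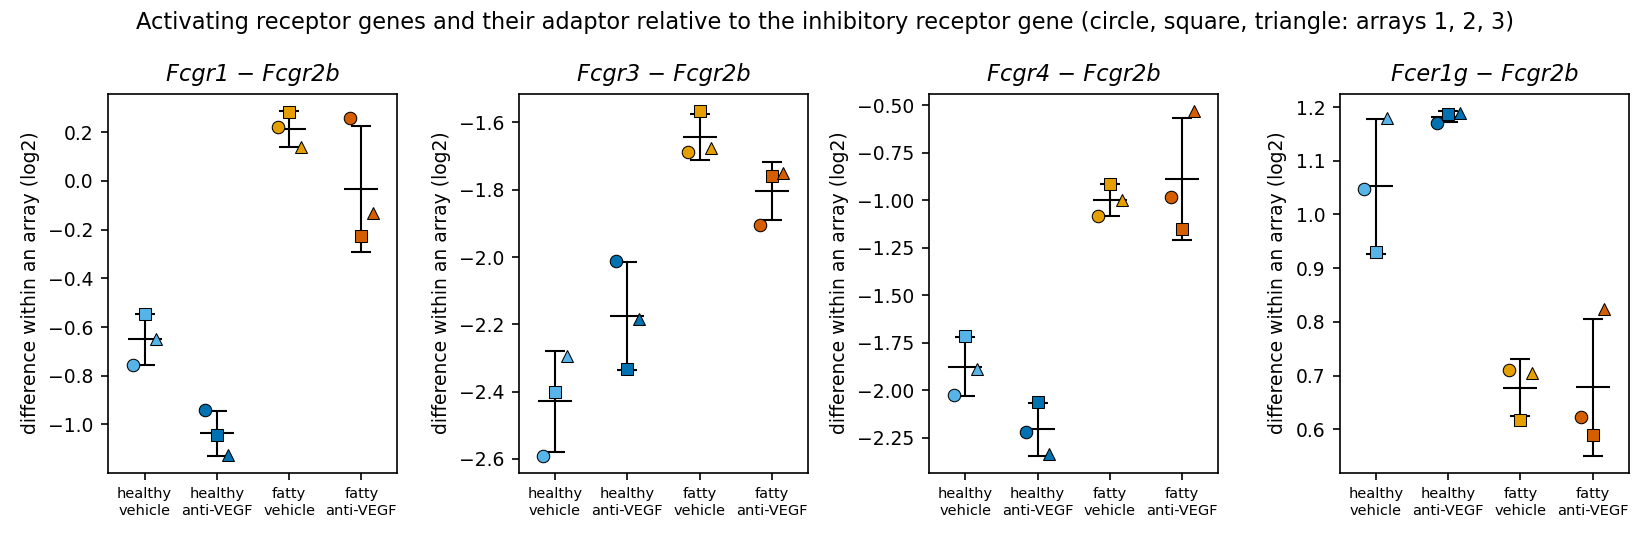
Difference within an array (log2, vertical axes) between each activating receptor gene or the adaptor Fcer1g and Fcgr2b, by group (horizontal axes), with bars for the mean ± SD (n = 3). Fcgr1, Fcgr3 and Fcgr4 shift up relative to Fcgr2b in fatty liver, by 0.37 to 1.32, and Fcer1g shifts down, by -0.37 under vehicle and -0.50 under anti-VEGF.

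The treatment comparison asks whether Fc receptor transcripts differ after anti-VEGF. In healthy liver, 0 of 7 members passed (0% of tested genes did) and 3 had an unadjusted limma p under 0.05. The differences were -0.91 for Fcgr1 (SE 0.28, limma adjusted p = 0.375), -0.85 for Fcgr4 (SE 0.28, limma adjusted p = 0.428) and -0.52 for Fcgr2b (SE 0.23, limma adjusted p = 0.594). For Fcer1g the difference was -0.39, for Fcrls -0.38, for Fcgrt -0.30 and for Fcgr3 -0.27. For 5 of 7 members, all but Fcgr3 and Fcgrt, every anti-VEGF array lay below every vehicle array, where 24.8% of tested genes had groups that did not overlap.

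Vehicle array 2 of healthy liver stood apart here. It lay 1.19 above the mean of vehicle arrays 1 and 3 for Fcgr1, 1.28 for Fcgr4, 1.07 for Fcgr3, 1.03 for Fcgr2b and 0.85 for Fcer1g, and 0.09 for Fcrls. Its macrophage list mean was 10.4, that of arrays 1 and 3 being 9.46 and 9.44. For the endothelial list the means were 9.06 on this array and 5.58 and 5.61 on the others, and for the fibroblast list 10.05, 7.93 and 7.82. The part of these cells in the receptor values was not tested. Without it the difference with treatment was -0.51 for Fcgr1, -0.42 for Fcgr4, -0.17 for Fcgr2b, -0.11 for Fcer1g, -0.07 for Fcgrt and -0.36 for Fcrls. For Fcgr3 it turned to 0.09. No member passed in that fit. When that array alone stood for healthy liver vehicle, the difference was -1.70 for both Fcgr1 and Fcgr4, and 5 of 7 members passed, where 754 of 13286 genes did.

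In fatty liver the treatment differences were -0.28 for Fcgr1, -0.19 for Fcgr3, 0.08 for Fcgr4, -0.03 for Fcer1g, -0.03 for Fcgr2b, -0.04 for Fcgrt and -0.14 for Fcrls. No member passed (limma, 0.00753% of tested genes did), 0 had an unadjusted p under 0.05, and the groups overlapped for all 7, where 8.06% of tested genes had groups that did not. The 95% confidence intervals still allowed changes of some size, from -0.90 to 0.34 for Fcgr1, from -0.55 to 0.71 for Fcgr4 and from -1.32 to 1.03 for Fcrls.

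The interaction compares the treatment difference of fatty liver with that of healthy liver. It was 0.93 for Fcgr4 (SE 0.40, limma adjusted p = 0.964, unadjusted p = 0.0418) and 0.63 for Fcgr1 (SE 0.40, limma adjusted p = 0.979). In limma 0 of 7 members passed (0% of tested genes did), and 1 had an unadjusted p under 0.05. That member, Fcgr4, ranked 573 of 13286 tested genes by p. Without vehicle array 2 of healthy liver the Fcgr4 interaction was 0.50.

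Across the 12 arrays, Fcgr1, Fcgr3, Fcgr4, Fcer1g and Fcgr2b were correlated with each other at r = 0.98 to 1.00 (10 pairs), and the difference between livers enters these values. After each group's mean was removed, r was 0.82 to 0.97. Fcgrt and Fcrls were correlated with each other at 0.93, and at 0.80 after removal of the group means. Removal of the means left the 5 genes correlated with Fcrls at -0.33 to 0.08 and with Fcgrt at 0.10 to 0.52. The arrays share their tissue and near-identical partners, so these values describe the data and carry no test.

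The genes whose values were most like a member's over the 12 arrays were Fgl2, Hacd4 and Igsf6 for Fcgr1 (r from 0.997 to 0.998), Hip1, Dipk2a and Rasgef1b for Fcgr3 (0.995 to 0.996) and Stap1, Ly86 and Mpeg1 for Fcgr4 (0.996 to 0.998). For Fcer1g they were Clec4a1, Sdc3 and Stard5 (0.997 to 0.998). For Fcgr2b they were Inpp5d, Marcks and Msr1 (0.998 to 0.999), of which Inpp5d encodes SHIP1 and Msr1 a scavenger receptor of macrophages. For Fcgrt they were Scamp5, Psd3 and Ccl8 (0.983 to 0.986), and for Fcrls Fblim1, Wwp1 and Scamp5 (0.964 to 0.966), with Scamp5 in both sets.

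The genes that work with the Fc gamma receptors were taken from lists drawn up by known function. Of all tested genes 19.2% were higher in fatty liver under vehicle and 18.2% under anti-VEGF (limma, adjusted p under 0.05). Of 22 tested kinases, adaptors, lipid enzymes and phosphatases below the receptors, 21 were higher in each, with median log2 differences of 1.95 and 2.29. Under vehicle they included Pik3r5, a regulatory subunit of phosphoinositide 3-kinase (2.37, SE 0.15), Plcg2, a phospholipase (2.70, SE 0.30), Pik3ap1 (1.90, SE 0.22) and the protein kinase gene Prkcd (1.22, SE 0.14). Under anti-VEGF they included Pik3r5 (3.02, SE 0.15), Vav1, an exchange factor for Rac (3.19, SE 0.29), and Ptpn6, the phosphatase SHP-1 (2.67, SE 0.26). The exception in both was Inppl1, encoding SHIP2, at -0.15 (SE 0.14) and -0.29 (SE 0.14). Activating kinases and inhibitory phosphatases were thus both among the genes that were higher: Syk differed by 2.13 (SE 0.25) and Inpp5d by 2.00 (SE 0.34) under vehicle. With near-identical arrays averaged, fewer of the 22 passed in each comparison, as did far fewer of all tested genes.

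Of 15 tested genes for engulfment of opsonised particles and for the oxidative burst, 13 were higher under vehicle and 14 under anti-VEGF. Their medians were 1.90 and 2.30, and of all tested genes 19.2% and 18.2% were higher. Myo1f, a myosin of leukocytes, differed by 2.56 (SE 0.27) and 3.31 (SE 0.27), and Ncf1, an oxidase subunit, by 1.90 (SE 0.20) and 2.27 (SE 0.20). Was, which drives actin branching, differed by 3.04 (SE 0.30) under anti-VEGF, and Arpc5 by 0.54 (SE 0.06) under vehicle. Fcho1 passed in neither, and Marcksl1 did not pass under vehicle (0.45, SE 0.18, limma adjusted p = 0.0651). With near-identical arrays averaged, fewer of the 15 passed in each comparison, as did far fewer of all tested genes.

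Of 9 tested other Fc receptor and Fc receptor-like genes, 5 were higher in each comparison, with medians of 0.67 and 1.01. Of all tested genes 19.2% were higher under vehicle and 18.2% under anti-VEGF. Fcrl5 was higher by 2.32 (SE 0.34) under vehicle and 3.74 (SE 0.34) under anti-VEGF, Fcrlb by 2.02 (SE 0.30) and 2.29 (SE 0.30), and Fcrl1 by 1.78 (SE 0.18) and 1.81 (SE 0.18) from healthy liver means of 4.88 and 4.81. Fcrl1 and Fcrla, both among the 5, had healthy liver means below the limit, so they may have passed the filter only through fatty liver. The count of 5 may therefore rest in part on the group in which these genes are high. Trim21, the cytosolic IgG receptor, was higher by 0.67 (SE 0.11) and 1.36 (SE 0.11). The IgE receptor genes Fcer1a and Ms4a2, which pair with Fcer1g in mast cells, differed by -0.23 (SE 0.89) and -0.35 (SE 0.74) under vehicle and did not pass. B2m, which pairs with FcRn, differed by 0.04 (SE 0.06, limma adjusted p = 0.565). With near-identical arrays averaged, fewer of the 9 passed in each comparison, and most of the calls under vehicle were lost. Most calls under vehicle were also lost without the Xist-high vehicle arrays. Far fewer of all tested genes passed in these cases too.

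Of 7 tested genes of other transmembrane adaptors for activating receptors, 5 were higher and 1 lower in each comparison. Most of the 7 carry an ITAM, and the medians were 1.86 and 2.19. Of all tested genes 19.2% were higher and 30.4% lower under vehicle, and 18.2% and 27.6% under anti-VEGF. Cd3d, among the 5 under vehicle, had healthy liver means of 4.74 and 4.59, below the limit. It may have passed the filter only through fatty liver. Tyrobp, the adaptor DAP12 of myeloid and natural killer cells, was higher by 2.08 (SE 0.31) and 2.50 (SE 0.31), more than Fcer1g. Cd3g and Cd3e of the T cell receptor were higher by 3.07 (SE 0.57) and 2.68 (SE 0.60) under vehicle. The B cell receptor subunits parted, with Cd79b at 1.86 (SE 0.36) and Cd79a, the 1 that was lower, at -0.97 (SE 0.14) under vehicle. With near-identical arrays averaged, all calls under vehicle and most of those under anti-VEGF were lost. Most calls under vehicle were also lost without the Xist-high vehicle arrays. Far fewer of all tested genes passed in these cases too. For treatment, 0 genes of the 4 lists passed in limma in either liver. Those with an unadjusted p under 0.05 in healthy liver numbered 5 of the 22 signalling genes, 3 of the 15 phagocytosis genes, 1 of the 9 other receptors and 0 of the 7 adaptors. In fatty liver they numbered 1, 2, 1 and 0. For scale, the member Fcgr2b, with an unadjusted limma p of 0.0474 in healthy liver, ranked 1058 of 13286 tested genes. How many of all tested genes were under 0.05 in fatty liver was not counted.

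**Figure D5:**
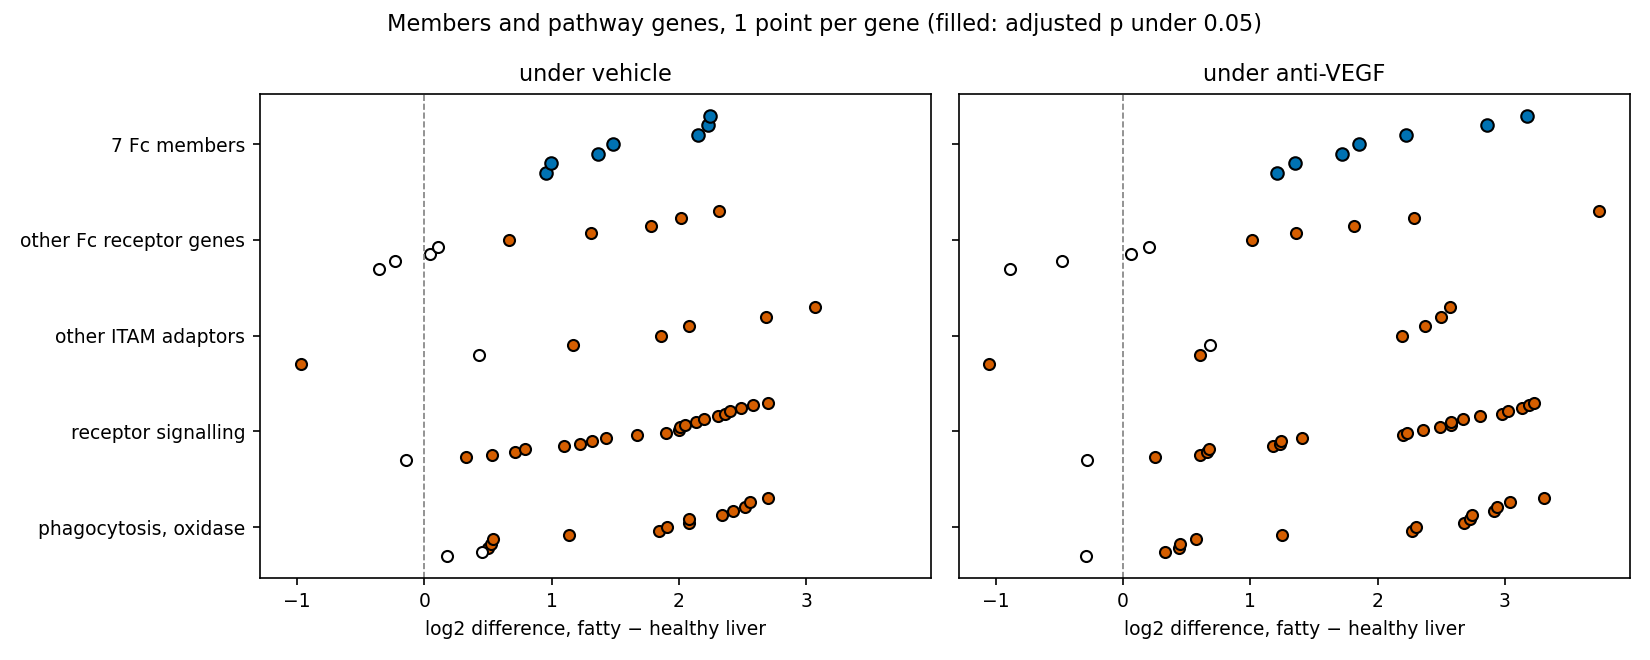
Log2 difference between fatty and healthy liver (horizontal axes) under vehicle (left) and anti-VEGF (right), 1 point per gene, for the 7 Fc genes and 4 lists of related genes (rows), filled where the limma adjusted p is under 0.05. Receptor signalling genes except Inppl1 lie to the right of 0 with 21 of 22 filled in both panels. Of all tested genes 19.2% and 18.2% were higher. Other Fc receptor genes divide into 5 filled points and 4 near or below 0. Fcrl1 and Fcrla, among those 5, had healthy liver means below the limit and may have passed the filter only through fatty liver.

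Macrophage markers were higher in fatty liver together with the receptors. Of 11 tested macrophage markers 10 were higher in fatty liver in both comparisons, where 19.2% and 18.2% of all tested genes were. The mean of the 11 markers was 9.28 to 10.4 over the healthy and 11.2 to 11.6 over the fatty liver arrays. Relative to that macrophage mean on the same array, the fatty liver shift was 0.53 for Fcgr1, 0.45 for Fcgr3 and 0.54 for Fcgr4 under vehicle and 0.79, 0.16 and 1.11 under anti-VEGF. It was -0.71 in both for Fcer1g, -0.34 and -0.21 for Fcgr2b, -0.75 and -0.85 for Fcgrt and -0.22 and -0.34 for Fcrls. For Fcgr3 under anti-VEGF the livers overlapped on this measure (highest healthy liver array -1.32, lowest fatty liver array -1.34). Single macrophage markers differed by 0.36 (Mertk) to 2.88 (Cd14) under vehicle and by 0.30 (Mertk) to 2.93 (Itgam) under anti-VEGF. The 3 activating receptors lay within these ranges, except Fcgr4 under anti-VEGF at 3.17. The shifts thus depend on the markers listed, and a rise beyond macrophage content was not tested.

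Other cells that bear these receptors were read from the means of their marker lists. For natural killer cells the mean was 4.32 to 4.69 on the healthy liver arrays and 4.66 to 7.69 on the fatty liver arrays, with anti-VEGF array 3 of fatty liver at the healthy liver level. Of the 5 tested markers, Ncr1, Klrd1, Eomes and Gzma had healthy liver means below the limit, so no count of them is given. For neutrophils the mean was 4.86 to 5.58 and 5.56 to 9.10, with Csf3r higher by 2.74 (SE 0.36, limma adjusted p = 0.000356) and Mmp9 at 0.66 (SE 0.51, limma adjusted p = 0.302) under vehicle. Of the mast cell and basophil markers 0 of 7 passed in limma and 0 had an unadjusted p under 0.05. Between livers 49.6% of all tested genes passed under vehicle and 45.8% under anti-VEGF. Of 6 Kupffer cell markers 5 were below the limit on every array (Clec4f, Vsig4, Timd4, Cd5l and Marco). For dendritic cells the list mean was 5.65 to 5.90 on the healthy and 6.08 to 7.35 on the fatty liver arrays. Of 8 B cell and plasma cell markers with a row, 4 were below the limit on every array. That list mean was 4.71 to 4.89 on the healthy and 5.19 to 5.52 on the fatty liver arrays. The part of any of these cells in the receptor differences was not tested.

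Some markers of the labelled tissue were not above the limit. Of 7 epithelial genes Epcam, Krt19, Cldn4 and Cldn7 were below the limit on every array. The other 3 were tested, and under vehicle Krt8 differed between livers by -0.84 (SE 0.17, limma adjusted p = 0.00346), Krt18 by -0.88 (SE 0.23, limma adjusted p = 0.0105) and Cdh1 by 2.37 (SE 0.48, limma adjusted p = 0.00312). Krt8 had group means of 9.56 to 10.8. Of 8 hepatocyte genes 5 were below the limit on every array, Alb among them.

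Fcgr2b, Fcgr4, Fcgr3 and Fcer1g lie near each other on chromosome 1 in the order of the RefSeq table. Of the 10 tested neighbours between and beside them that are not Fc genes, 2 were higher in fatty liver under vehicle, Cfap126 by 0.64 (SE 0.16) and Pcp4l1 by 1.33 (SE 0.28), 1 was lower, Adamts4 at -1.10 (SE 0.41), and 7 did not pass. Under anti-VEGF 2 were higher and 8 did not pass. Of all tested genes 19.2% were higher and 30.4% lower under vehicle, and 18.2% and 27.6% under anti-VEGF. Among these 10, the share that were higher was thus near that of all genes. The Fc receptor-like genes Fcrlb and Fcrla, also beside Fcgr2b, were not counted among them. Both were higher, by 2.02 and 1.31 under vehicle and by 2.29 and 1.01 under anti-VEGF. The part of position in the differences was not tested. Sdhc, which lies between Fcgr3 and Fcer1g, differed by -0.02 (SE 0.13), and Apoa2, next to Fcer1g, by -0.16 (SE 0.09) under vehicle.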

How the data were processed

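Total RNA was purified, amplified and labelled with biotin for single-colour arrays, per the labels' protocols. Affymetrix Expression Console is named in the submitters' processing notes. No version, summarisation method or genome build is given in the sources used here. The authors deposited log2 expression, a column for each array, with medians of 4.88 to 4.99. The log2 scale was read from their range, and any centring is unknown. Arrays carry no count depth, so their number limits the precision.

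Platform annotation named a single gene for 23521 rows, more than 1 for 1814 rows and no gene for 16010 rows. Where a gene had more than 1 row, that with the highest mean was taken. A gene was tested if above the table median, 4.93, on at least 3 arrays. All 12 arrays entered 1 limma model (limma 3.58.1, R 4.3.3, Python 3.11.15) with a mean per group, 8 residual degrees of freedom, Benjamini-Hochberg adjustment over 13286 genes and a threshold of 0.05. The fit was tested on simulated data with known changes and independent arrays. Near-identical arrays were not simulated, so this does not show how the p-values behave with them. The members and lists were chosen with earlier results of these data known. Named were all members, the 3 genes most correlated with each, and up to 4 genes of each list by smallest p in each comparison described. Genes named beyond these (Syk, Inpp5d, members of a list that did not pass, single markers and chromosome 1 neighbours) were chosen after their values were seen or by position.

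Labels share replicate numbers between groups. Deviations of same-numbered arrays from their group means were correlated at 0.54 to 0.70 between the vehicle groups of the livers, and at -0.49 to 0.47 in other comparisons. Between the vehicle groups, healthy liver array 1 with fatty liver array 3, and 3 with 1, were correlated as well, at 0.55 and 0.57. The values therefore do not show pairing by replicate number, and the labels state none. Alternatives covered normalization, filters, rows, array weights, near-identical arrays, Xist-high arrays, the replicate block and each array left out.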

Additional observations from a re-analysis of the deposited data

How the results depend on the processing

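Over 840 values of members under alternatives, 801 kept their side of the threshold, 32 lost the call and 7 gained one. The sign differed in 30 of the 840, each a value called neither there nor with all arrays, among them Fcgr3 for treatment in healthy liver. With near-identical arrays averaged, which leaves 2, 1, 2 and 3 values per group, 3 members instead of 7 passed between livers under vehicle, and 3 under anti-VEGF. Without the vehicle arrays high in Xist, 3 passed under vehicle. In each case these were Fcgr1, Fcgr3 and Fcgr4. Groups reduced to 1 array were assumed to vary like the others. For treatment in healthy liver, 2 members instead of 0 passed with array weights (Fcgr1 at -0.54 and Fcgr4 at -0.45, where 1661 genes passed), and 5 without the Xist-high arrays, which leaves vehicle array 2 alone (Fcgr1 and Fcgr4 at -1.70, Fcer1g at -0.95, Fcgr2b at -1.21 and Fcgr3 at -0.98). Leaving out 1 array gave 5 to 7 calls under vehicle, where 4689 to 7337 of 13286 genes passed. Under anti-VEGF it gave 6 to 7, where 4274 to 7475 genes did. Otherwise it gave 0, where at most 41 genes passed. With the replicate number as a block, 7 members passed in both liver comparisons, where 6671 and 6259 of 13286 genes did, and 0 in the others, where 0 genes did. The same block fitted to the vehicle groups only, added after seeing the data, gave 7, with 7181 genes. A fit of only the groups compared does not apply to the interaction, which needs all groups. The fit without both arrays that stand apart was also added after seeing the data.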
